A study of Mus musculus with 9 samples.

Results

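Fn1, Foxp2, Rorb, Tshz2, Cux2, Nr4a2, Fezf2 and Tle4 are 8 genes that mark neurons of the subiculum and of the neocortical layers, the tissue that borders the hippocampus proper. They were taken by name from the 48709 genes of the exon count files and followed across all 9 mice, since their levels bear on how much bordering tissue each dissected hippocampus held. All 8 genes passed the filter on low counts, which 17361 genes passed in all.

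RNA was sequenced from nuclei of frozen hippocampi, sorted by their staining for NeuN, a protein of neuronal nuclei, in 3 WT vehicle, 3 Tg4-42 vehicle and 3 Tg4-42 caffeine mice. All mice were 6 months old. Tg4-42 mice, kept on a C57Bl/6J background, were homozygous for a transgene in which the murine Thy1 promoter drives human Aβ4-42, fused to the signal peptide of murine thyrotropin-releasing hormone, in neurons. WT mice were C57Bl/6J. The Tg4-42 caffeine mice had caffeine at 300 mg/l in the drinking water for 4 months from the age of 2 months, and the vehicle mice drank plain water. The sample labels name the treatment of the caffeine group, and the vehicle groups follow from the genotype label and the study's methods. The labels do not give the sex of the mouse behind each library, and sex was not part of any model. In the study, hippocampi and cortices of male Tg4-42 mice were dissected whole as separate frozen tissues. The sources used here differ on whether nuclei came from 3 or 6 mice per group, so some libraries may hold pooled mice, and each library is called a mouse in the following.

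The subiculum is the main output region of the hippocampal formation and lies between the CA1 field and, past the presubiculum and parasubiculum, the entorhinal cortex. Projection neurons of the neocortex are stacked in layers that differ in the transcription factors they keep expressing in adult life. A gene that is abundant in these neighbours and scarce in CA1, CA3 or the dentate gyrus therefore varies in a bulk hippocampal library with the amount of bordering tissue as well as with its level per nucleus. In such bulk libraries, fewer nuclei of a cell type and less RNA per nucleus cannot be told apart, and this holds for every result given here.

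Library totals lay between 9342945 and 16376922 counts, so that 3 counts, taken as the detection floor, stood for 0.190 to 0.325 CPM (counts scaled to library size, here after TMM scaling). Floors cover counting error only. Reads on the 8 genes numbered from 42 (Foxp2, Tg4-42 caffeine replicate 3) to 1413 (Nr4a2, WT vehicle replicate 3), all far above that floor. Trh, which carries the transgene's signal peptide, lay at 1.81 to 4.39 CPM in the WT and 48.0 to 64.7 CPM in the Tg4-42 libraries, and Thy1 at 82.1 to 88.8 and 461 to 670 CPM, so each library matched its genotype label. The neuronal genes Rbfox3, Syt1, Snap25 and Slc17a7 were present in every library, with a summed level of 5258 to 7699 CPM. WT vehicle replicate 1 stood apart by thalamic genes, described further on, and results that rest on it are given with and without it. Replicates 1 and 2 of each group were sequenced on lane 6 and replicate 3 on lane 7, so each group has the same split over lanes, and lane and replicate 3 cannot be told apart.

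The level of the 8 genes per kilobase of exon spanned more than an order of magnitude. Nr4a2, an orphan nuclear receptor that marks layer 6b and parts of the subicular complex and is also induced by neuronal activity, had the highest mean level over the 9 mice, 15.8 CPM per kb. Fezf2, the zinc finger factor of layer 5 neurons that project out of the cortex, followed with 11.3 CPM per kb, and Tle4, a Groucho-family corepressor found in layer 6 corticothalamic neurons, with 7.01 CPM per kb. Fn1, which encodes the matrix glycoprotein fibronectin and is abundant in pyramidal neurons of the subiculum, stood at 4.02 CPM per kb.

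Lower levels were measured for the remaining members. Rorb, a nuclear receptor of layer 4 neurons, had a mean level of 2.05 CPM per kb. Tshz2, a teashirt-family zinc finger factor of deep-layer and retrosplenial neurons, had 1.96 CPM per kb, and Cux2, a homeobox factor of the upper layers, had 1.67 CPM per kb. Foxp2, a forkhead factor of layer 6, had the lowest level, 0.626 CPM per kb. In this order, the ranges over the 9 mice did not overlap between Fezf2 (7.72 to 15.7 CPM per kb) and Tle4 (5.91 to 7.53), nor between Tle4 and Fn1 (2.96 to 5.75). The other neighbours overlapped, with Nr4a2 at 7.99 to 22.5, Rorb at 0.493 to 4.01, Tshz2 at 1.60 to 2.25, Cux2 at 1.12 to 2.48 and Foxp2 at 0.198 to 1.19 CPM per kb.

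The level of Tshz2 carries a limit of annotation. On mm10, Tshz2 lies at chr2:169633013-170071816 on the plus strand, and 65.2% of its 7781 exon bases are shared with Gm26883 on the opposite strand, a gene that received 1 count in all 9 libraries together. How reads on shared bases were assigned is not given in the sources used here, so the level of Tshz2 may be understated and is uncertain against the other genes, whereas its comparison between mice is made on the same bases. Fn1 at chr1:71585520-71653200 shares 292 of 11685 exon bases with Apol7d, which had 26 counts in all. No other member shared exon bases with another annotated gene.

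The sequence upstream of the start is shown for 4 members that behaved differently between mice: Rorb and Cux2, Nr4a2, which also responds to neuronal activity, and Tle4, which hardly varied. Rorb and Cux2 had a Pearson's r of 0.826 in log2 CPM. Their exact permutation p, adjusted over all pairs of members, was 0.0825 and did not pass. Promoters of 6 members were found in the RefSeq table (GRCm38.p6), and Fn1 and Foxp2 had no entry. Each line below gives the 250 bases before the first listed start of the gene, 5′ to 3′ on the gene's own strand, which is the minus strand for all 4. Capitals mark matches, on either strand, to the CCAAT box (CCAAT), the GC box (GGGCGG), the TATA box (TATAAA), the core of the cyclic AMP response element (TGACG) or the E-box CACGTG. Overlapping GC box matches run together in the capitals.
Rorb, chr19:19111197-19111446: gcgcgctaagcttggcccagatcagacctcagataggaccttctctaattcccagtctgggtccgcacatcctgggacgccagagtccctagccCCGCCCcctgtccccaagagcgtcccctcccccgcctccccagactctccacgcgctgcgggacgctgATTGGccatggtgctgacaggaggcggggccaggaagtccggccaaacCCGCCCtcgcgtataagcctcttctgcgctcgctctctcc
Cux2, chr5:122049852-122050101: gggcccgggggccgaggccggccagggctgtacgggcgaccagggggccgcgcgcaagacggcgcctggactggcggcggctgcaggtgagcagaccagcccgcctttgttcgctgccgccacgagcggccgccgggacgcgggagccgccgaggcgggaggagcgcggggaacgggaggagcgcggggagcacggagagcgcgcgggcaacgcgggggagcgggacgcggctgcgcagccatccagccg
Nr4a2, chr2:57124004-57124253: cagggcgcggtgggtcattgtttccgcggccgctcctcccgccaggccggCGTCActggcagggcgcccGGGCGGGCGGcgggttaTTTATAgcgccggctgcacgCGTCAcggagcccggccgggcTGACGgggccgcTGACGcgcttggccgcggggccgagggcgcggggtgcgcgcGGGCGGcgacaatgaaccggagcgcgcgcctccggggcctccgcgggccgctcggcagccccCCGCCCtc
Tle4, chr19:14598184-14598433: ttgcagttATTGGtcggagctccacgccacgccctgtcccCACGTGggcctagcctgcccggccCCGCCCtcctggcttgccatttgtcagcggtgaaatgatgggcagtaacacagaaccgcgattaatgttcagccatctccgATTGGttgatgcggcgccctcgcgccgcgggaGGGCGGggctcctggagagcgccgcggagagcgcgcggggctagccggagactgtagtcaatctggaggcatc

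The Nr4a2 window held 4 response element cores, 4 GC boxes and 1 TATA box, in 80% GC with 44 CpG sites. The Rorb window held 2 GC boxes and 1 CCAAT box in 66.0% GC. The Tle4 window held 2 CCAAT boxes, 2 GC boxes and 1 E-box, and the Cux2 window, with 80% GC and 40 CpG sites, held none of the motifs. Among 32851 mouse promoter windows of the same length, the response element core occurred in 17.8%, the GC box in 32.7%, the CCAAT box in 33.8%, the TATA box in 12.4% and the E-box in 6.02%. These letter matches describe the windows and were not tested for factor binding.

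Rorb had the widest range of the 8 genes between mice. Rorb was measured at 24.3, 8.78 and 44.4 CPM in WT vehicle replicates 1, 2 and 3, at 31.7, 14.9 and 40.2 CPM in Tg4-42 vehicle, and at 25.0, 9.47 and 5.46 CPM in Tg4-42 caffeine. Its highest value was 8.14 times its lowest. The highest mouse (WT vehicle replicate 3) and a mouse near the lowest (WT vehicle replicate 2) were of the same group, and Tg4-42 caffeine replicate 3 was the lowest of all. The groups overlapped in every comparison.

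Foxp2 followed a similar order of mice. Its level was 7.69, 4.42 and 19.4 CPM in WT vehicle, 14.7, 8.66 and 18.5 CPM in Tg4-42 vehicle, and 8.09, 7.40 and 3.23 CPM in Tg4-42 caffeine, again for replicates 1, 2 and 3. The highest value was 6.01 times the lowest. All 3 Tg4-42 caffeine mice were below all 3 Tg4-42 vehicle mice, while WT vehicle mice lay on both sides.

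Cux2 varied less. It was found at 13.3, 11.9 and 25.0 CPM in WT vehicle, at 21.9, 14.9 and 22.5 CPM in Tg4-42 vehicle, and at 17.0, 11.3 and 14.1 CPM in Tg4-42 caffeine. As for Rorb and Foxp2, WT vehicle replicate 3 was the highest mouse, at 2.21 times the lowest.

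The matrix gene Fn1 had a different order of mice. Its values were 67.2, 42.9 and 37.8 CPM in WT vehicle, 56.2, 52.1 and 47.7 CPM in Tg4-42 vehicle, and 38.9, 45.4 and 34.6 CPM in Tg4-42 caffeine. WT vehicle replicate 1 was the highest, and the caffeine mice were below the Tg4-42 vehicle mice without overlap. Fn1 is also made by blood vessels and fibroblasts, so genes of these cells were read beside it. The endothelial genes Cldn5, Pecam1 and Flt1 stayed below 1 CPM in every library, with a summed level over 5 endothelial genes of 3.84 to 4.99 CPM in WT vehicle, 3.47 to 5.06 CPM in Tg4-42 vehicle and 2.65 to 5.67 CPM in Tg4-42 caffeine. Of 4 fibroblast genes, the collagens Col1a1 and Col1a2 reached at most 1.16 CPM, and Dcn, which neurons also express, ranged from 8.31 to 232 CPM. The summed level of the fibroblast genes was 66.7 to 241 CPM in WT vehicle, 148 to 192 CPM in Tg4-42 vehicle and 18.5 to 210 CPM in Tg4-42 caffeine, and its part in the values of Fn1 was not tested.

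Fezf2 was even within WT vehicle and spread in both Tg4-42 groups. It lay at 33.7, 36.3 and 34.8 CPM in WT vehicle, at 32.7, 42.2 and 47.9 CPM in Tg4-42 vehicle, and at 24.4, 34.6 and 23.5 CPM in Tg4-42 caffeine. Only Tg4-42 caffeine replicate 2 reached into the range of the vehicle groups.

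Nr4a2 was measured at 55.8, 86.9 and 91.4 CPM in WT vehicle, at 73.4, 40.9 and 72.3 CPM in Tg4-42 vehicle, and at 68.4, 54.5 and 32.4 CPM in Tg4-42 caffeine. Since Nr4a2 is inducible, 6 immediate early genes were read beside it. Their summed level was 472 to 878 CPM in WT vehicle, 482 to 786 CPM in Tg4-42 vehicle and 286 to 905 CPM in Tg4-42 caffeine. Tg4-42 caffeine replicate 3, the lowest mouse for Nr4a2, was also the lowest for Fos, with 6.07 CPM, and for Arc, with 105 CPM, whereas Tg4-42 caffeine replicate 1 had the highest sum of the 9 mice and an Nr4a2 level in the middle of the range. The part of neuronal activity in the level of Nr4a2 was not tested.

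Tshz2 and Tle4 hardly differed between mice. Tshz2 was found at 14.6, 15.6 and 14.4 CPM in WT vehicle, at 17.5, 14.1 and 16.1 CPM in Tg4-42 vehicle, and at 17.4, 15.0 and 12.5 CPM in Tg4-42 caffeine. Tle4 was found at 40.4, 43.0 and 39.9 CPM in WT vehicle, at 41.7, 33.7 and 41.6 CPM in Tg4-42 vehicle, and at 40.6, 40.7 and 38.0 CPM in Tg4-42 caffeine. The highest mouse exceeded the lowest by 1.41 times for Tshz2 and by 1.27 times for Tle4.

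**Figure D1:**
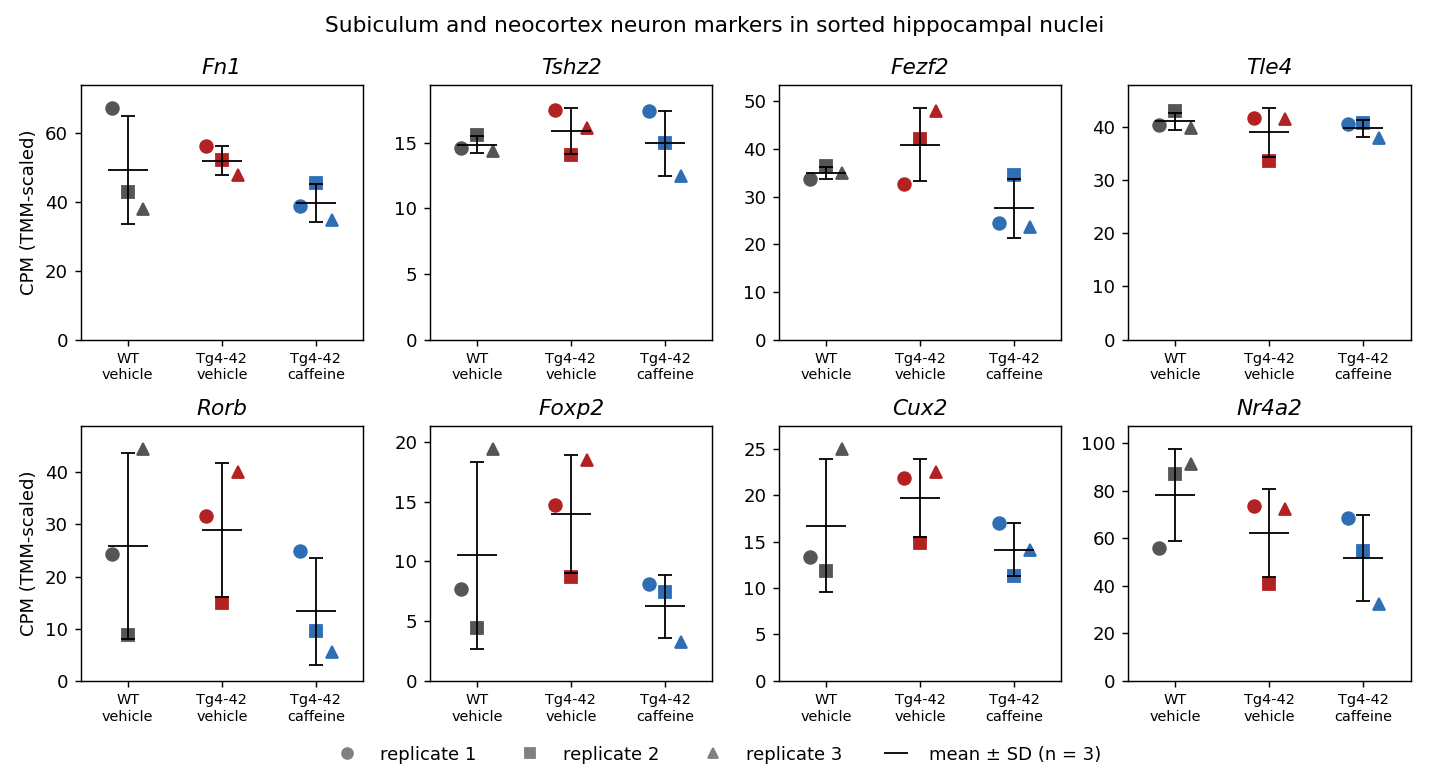
Level of the 8 genes in each mouse, in TMM-scaled CPM on a linear axis from 0. Symbols stand for replicates 1, 2 and 3 of WT vehicle, Tg4-42 vehicle and Tg4-42 caffeine, and black lines for the mean ± SD (n = 3). Rorb spreads from 5.46 to 44.4 CPM and Foxp2 from 3.23 to 19.4 CPM, with the caffeine mice below the Tg4-42 vehicle mice for Foxp2 but not for Rorb, while Tle4 stays between 33.7 and 43.0 CPM.

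The spread within groups separated the members more clearly than the group means did. The biological coefficient of variation, edgeR's estimate of the relative spread between mice of the same group, was 0.630 for Rorb, 0.454 for Foxp2, 0.261 for Nr4a2, 0.227 for Cux2 and 0.161 for Fn1. Genes of the same mean count had, by the fitted trend, 0.158, 0.194, 0.129, 0.171 and 0.133. The ratio of a gene's own value to the trend placed Rorb at percentile 99.9, Foxp2 at 99.4, Nr4a2 at 99.0, Cux2 at 94.1 and Fn1 at 90.0 of all tested genes.

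The remaining 3 genes were near or below the trend. Fezf2 had a coefficient of 0.149 against a trend of 0.142 (percentile 74.5), Tshz2 had 0.150 against 0.176 (percentile 22.4), and Tle4 had 0.114 against 0.137 (percentile 16.9). The value common to all tested genes was 0.163. On the log2 CPM scale, the SD within groups was 1.02 for Rorb and 0.80 for Foxp2, compared with 0.11 for Tle4 and a median of 0.23 over all tested genes. Layer 6 markers were thus found at both ends, Foxp2 among the most variable genes and Tle4 among the least variable of the 8.

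**Figure D2:**
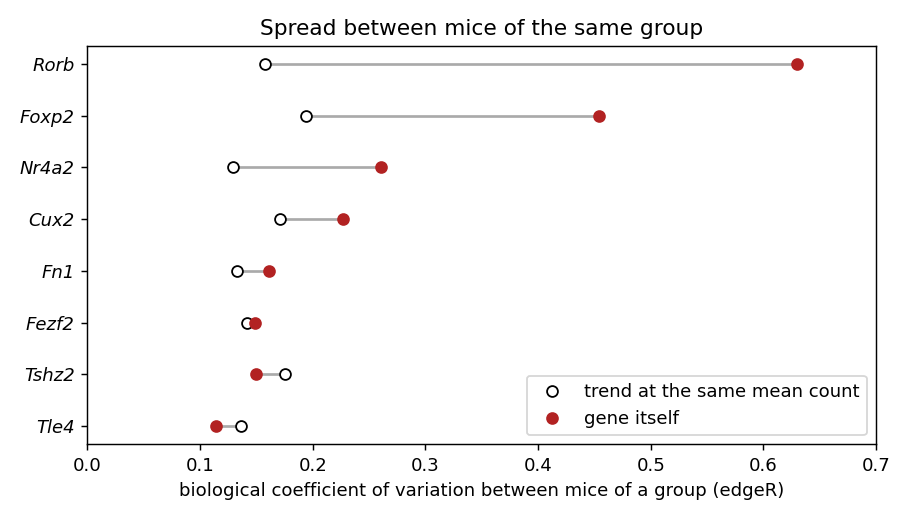
Spread between mice of the same group for the 8 genes, as the biological coefficient of variation from edgeR (horizontal axis, no unit). Filled points give each gene's own value and open points the trend at its mean count. Rorb (0.630) and Foxp2 (0.454) lie far to the right of their trend, and Tle4 (0.114) to its left.

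Single mice accounted for most of the extremes. Tg4-42 caffeine replicate 3 had the lowest level of the 9 mice for 6 genes (Fn1, Foxp2, Rorb, Tshz2, Nr4a2 and Fezf2), and WT vehicle replicate 3 the highest for 4 genes (Foxp2, Rorb, Cux2 and Nr4a2). The summed level of the 8 genes was 257, 250 and 307 CPM in WT vehicle replicates 1, 2 and 3, 290, 221 and 307 CPM in Tg4-42 vehicle, and 240, 218 and 164 CPM in Tg4-42 caffeine. The lowest Tg4-42 vehicle mouse (221.3 CPM) fell between the caffeine mice, so the sums of these groups overlapped.

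Whether Tg4-42 mice differed from WT mice in these markers was compared first. In Tg4-42 vehicle against WT vehicle, 0 of 8 members were called by edgeR's quasi-likelihood test at a Benjamini-Hochberg adjusted p under 0.05, beside 0.0979% of all tested genes. At an unadjusted p under 0.05, 0 members passed as well, beside 2.74% of all tested genes, and DESeq2 also called 0. The log2 fold change was above 0 for 6 members and below 0 for 2, with a median of 0.12 for the members and 0.00 for all tested genes. The largest values were 0.40 ± 0.54 (SE) for Foxp2 and -0.33 ± 0.31 for Nr4a2, and every member had an adjusted p of 1.00 by edgeR.

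For 0 members did the values of the Tg4-42 vehicle and WT vehicle mice stay apart without overlap, which 6.73% of all tested genes did. The difference in Fn1 depended on WT vehicle replicate 1, the library with thalamic genes. Its log2 fold change was 0.08 ± 0.18 with that mouse and 0.36 ± 0.15 without it (edgeR, adjusted p = 0.998). Without WT vehicle replicate 3, the highest mouse for 4 members, Foxp2 differed by 1.20 ± 0.41 and Rorb by 0.80 ± 0.81 on the log2 scale, with adjusted p-values of 0.894 and 0.994 by edgeR.

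Among the comparisons, caffeine against vehicle within Tg4-42 mice had the largest log2 fold changes for Fn1, Foxp2, Rorb, Cux2 and Fezf2. In Tg4-42 caffeine against Tg4-42 vehicle, 0 of 8 members were called by edgeR, beside 0.881% of all tested genes. Fezf2 was the 1 member with an unadjusted p under 0.05 (2946 genes, or 17.0%, had one). Its mean was 27.5 ± 6.14 CPM (SD, n = 3) with caffeine and 40.9 ± 7.67 CPM with vehicle, a log2 fold change of -0.57 ± 0.17 (SE) with an adjusted p of 0.110 by edgeR. DESeq2 called it, with an adjusted p of 0.0457, as 1 of 765 genes called among 17361. Fezf2 was lower with caffeine under every alternative, by a log2 fold change between -0.77 and -0.33, with adjusted p-values from 0.0250 to 0.900.

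Larger but less certain differences were measured for the variable members. Foxp2 differed by -1.15 ± 0.56 on the log2 scale (edgeR, adjusted p = 0.342), from 14.0 ± 4.95 CPM with vehicle to 6.24 ± 2.63 CPM with caffeine. Rorb differed by -1.11 ± 0.78 (edgeR, adjusted p = 0.535), from 28.9 ± 12.9 to 13.3 ± 10.3 CPM. In Cux2 the difference was -0.48 ± 0.27 and in Fn1 -0.39 ± 0.18, with adjusted p-values of 0.383 and 0.300 by edgeR.

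The other members lay closer to 0. Nr4a2 differed by -0.26 ± 0.31, Tshz2 by -0.08 ± 0.17 and Tle4 by 0.03 ± 0.13 on the log2 scale. The log2 fold change was below 0 for 7 of 8 members, with a median of -0.44, and for 51.5% of all tested genes, with a median of -0.01. The groups did not overlap for 2 of the 8 members, Fn1 and Foxp2, against 23.0% of all tested genes. Both were lower with caffeine, as were 12.6% of all tested genes without overlap. An exact two-sided permutation test of 3 against 3 mice gave p = 0.1 for each, the smallest it can give.

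Several of these differences were smaller without Tg4-42 caffeine replicate 3. With that mouse left out, the log2 fold change was -0.84 ± 0.56 for Foxp2, -0.74 ± 0.81 for Rorb, -0.47 ± 0.19 for Fezf2, -0.30 ± 0.21 for Fn1 and -0.01 ± 0.26 for Nr4a2, and that of Tshz2 changed sign to 0.03 ± 0.19. Cux2 stayed at -0.48 ± 0.32. In the mice of lane 6 only, replicates 1 and 2 of each group, Nr4a2 and Tshz2 changed sign, to 0.13 and 0.06.

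In Tg4-42 caffeine against WT vehicle, 0 of 8 members were called by edgeR, beside 0.415% of all tested genes, 0 had an unadjusted p under 0.05, beside 15.4% of all tested genes, and DESeq2 called 0. The largest log2 fold changes were -0.96 ± 0.78 (SE) for Rorb, -0.75 ± 0.56 for Foxp2 and -0.59 ± 0.31 for Nr4a2, with adjusted p-values of 0.608, 0.560 and 0.395 by edgeR. The median was -0.33 for the members and -0.01 for all tested genes. For 0 members did the groups stay apart, against 18.8% of all tested genes. In lane 6 only, Foxp2 (0.37), Rorb (0.07) and Cux2 (0.17) were above 0 in this comparison, and without WT vehicle replicate 1 the log2 fold change of Fn1 went from -0.31 to -0.03. The 3 comparisons share groups, so their values are not independent of each other.

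**Figure D3:**
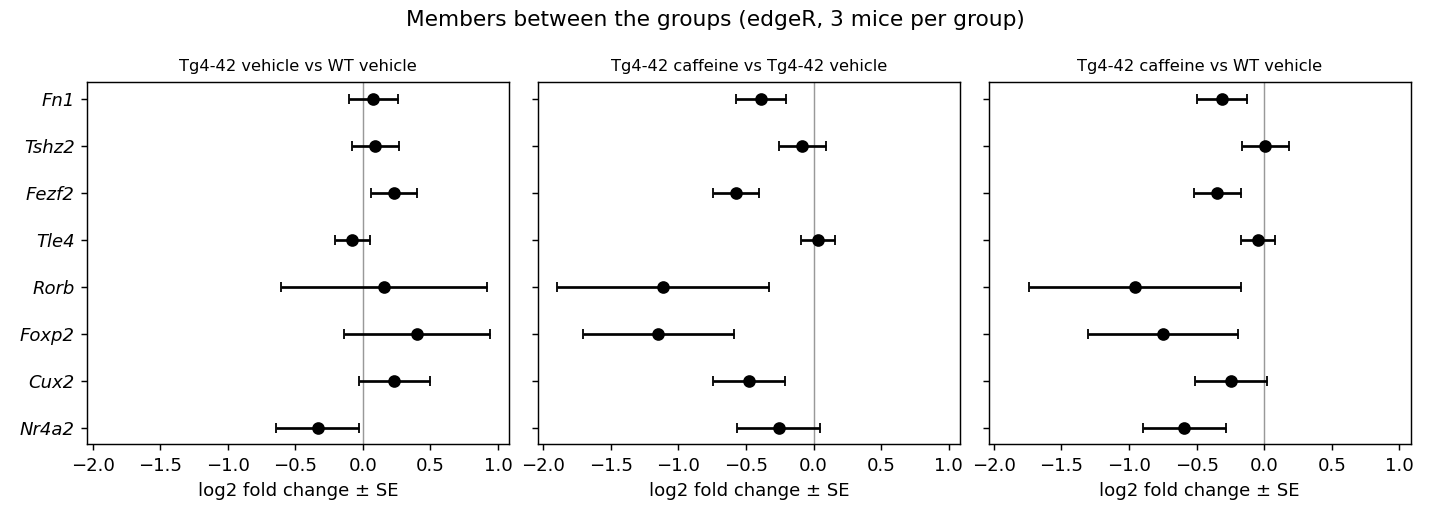
Log2 fold change ± SE (edgeR, 3 mice per group) of the 8 genes in Tg4-42 vehicle against WT vehicle, Tg4-42 caffeine against Tg4-42 vehicle, and Tg4-42 caffeine against WT vehicle, with a line at 0. The bars of Rorb and Foxp2 are the widest. Fezf2 at -0.57 ± 0.17 in the middle panel is the value farthest from 0 in units of its error.

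Since the spread lay mostly between single mice, the members were compared with each other across mice. Of 28 pairs, 25 had a Pearson correlation of log2 CPM above 0 over the 9 mice, with a median r of 0.36. For Foxp2 and Rorb, r was 0.926 and Spearman's rho 0.950, with an exact permutation p of 2.98e-04, or 0.00833 adjusted over the 28 pairs. This was the 1 pair of 28 that passed. Without the 2 mice farthest from the median of Foxp2 (Tg4-42 caffeine 3 and WT vehicle 3), r was 0.845. Within lane 6, r was 0.767 over 6 mice, and lane 7 held too few mice for a value.

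Cux2 came next in its relation to these genes. Its r was 0.833 with Foxp2 and 0.826 with Rorb, each with an adjusted exact permutation p of 0.0825, and 0.837 and 0.844 within lane 6. After values were centred on each group, r was 0.912 for Foxp2 and Rorb, 0.773 for Foxp2 and Cux2, and 0.793 for Rorb and Cux2. With permutations within groups, the exact p for Foxp2 and Rorb was 0.0139, or 0.324 after adjustment over 28 pairs, and 0 of 28 pairs passed. The smallest p this design allows is 0.00463, before adjustment. Even at that p, a single pair would not pass after adjustment over 28 pairs, so no conclusion is drawn from this count.

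No pair of Rorb with the remaining members passed. The correlation of Rorb was 0.623 with Nr4a2 and 0.556 with Tshz2, with adjusted exact permutation p-values of 0.351 and 0.367, and without the 2 farthest mice (Tg4-42 caffeine 3 and WT vehicle 2) it was 0.795 and 0.303. With Fezf2, Fn1 and Tle4 it was 0.375, 0.320 and 0.218, with adjusted exact permutation p-values of 0.638, 0.698 and 0.820. Nr4a2 and Tle4 had an r of 0.704 and Nr4a2 and Tshz2 of 0.680, with adjusted exact permutation p-values of 0.231 and 0.244. Fn1, the subiculum marker, had its highest r with Fezf2 (0.468) and an r of -0.08 with Cux2. The 8 markers therefore did not rank the 9 mice in 1 common order.

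**Figure D4:**
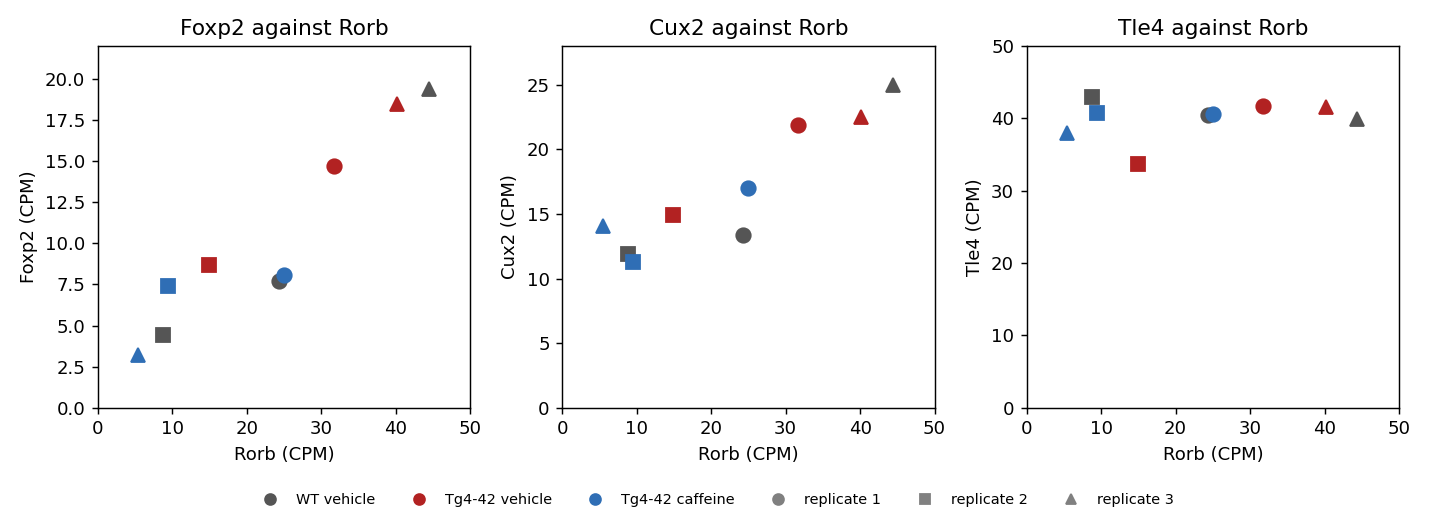
Foxp2, Cux2 and Tle4 against Rorb in each of the 9 mice, all in CPM on linear axes from 0, with colours for the groups and symbols for replicates 1, 2 and 3. Foxp2 (r = 0.926) and Cux2 (r = 0.826) rise with Rorb across groups, whereas Tle4 stays near 40 CPM along the whole range of Rorb (r = 0.218).

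For each member, the tested genes with a mean of at least 5 CPM whose pattern was most like it over the 9 mice were looked up among 12175 genes, by Pearson's r of log2 CPM and without a test. Cux2 was followed most closely by its paralogue Cux1 (r = 0.976), which is also an upper-layer homeobox factor and ranged from 32.9 to 57.0 CPM, then by Mgat5 and Exph5. Rorb was followed by Sema3a (r = 0.967, 3.46 to 36.9 CPM), which encodes a secreted axon guidance cue, then by B230216N24Rik and Strbp. Foxp2 had Man1a2, Car10 and Chrm3, the muscarinic M3 receptor, as nearest genes, with r from 0.955 to 0.968.

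The genes nearest to the others were of mixed kinds. Nr4a2 had Ly6g6e, Sgk3 and Fermt1 (r of 0.952 to 0.967), and Fezf2 had Serpine2, Rhbdd1 and Gpx3 (0.950 to 0.951). Fn1 had Vps35l, Orc3 and Prune2 (0.967 to 0.974), Tshz2 had Ccnt1, Eif2s2 and Mphosph8 (0.906 to 0.955), and Tle4 had Ogn, Cox7b and Psma5 (0.923 to 0.929). The 9 points of each gene come from the same libraries and depths.

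Relatives of the members were read to see whether whole families moved. Of 14 paralogues, 12 passed the filter, and 0 were called by edgeR in each of the 3 comparisons. At an unadjusted p under 0.05, 2, 1 and 2 paralogues passed in Tg4-42 vehicle against WT vehicle, caffeine against Tg4-42 vehicle, and caffeine against WT vehicle. The share of all tested genes was 2.74%, 17.0% and 15.4%. Rora, the close relative of Rorb, was found at 42.1 to 93.7 CPM, with its highest value in WT vehicle replicate 1, where Rorb was in the middle of its range. Foxp1 was even, at 90.5 to 115 CPM, and Foxp4 lay at 6.51 to 9.92 CPM. Fezf1, named after its values were seen, had 0 counts in all 9 libraries, which allows a level of up to 0.190 to 0.325 CPM per library.

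For Fn1, 6 integrin subunits of fibronectin receptors were read, of which 0 were called by edgeR in any comparison. Itga5, the α subunit of the classical fibronectin receptor, was found at 2.67, 2.46 and 5.88 CPM in WT vehicle, at 5.41, 2.70 and 8.59 CPM in Tg4-42 vehicle, and at 2.35, 2.14 and 1.38 CPM in Tg4-42 caffeine. Caffeine and Tg4-42 vehicle mice did not overlap in Itga5, as in 23.0% of all tested genes (log2 fold change -1.49 ± 0.43, edgeR adjusted p = 0.109). Itga5 had the lowest log2 fold change of the list in this comparison. In all, 4 genes of the list were below 0 and 2 above, Itgb3 (0.70 ± 0.51) and Itga8 (0.22 ± 0.18). Itga8, another fibronectin-binding α subunit, was the most abundant of the list in counts, at 108 to 201 CPM.

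Other markers of the same territories were set beside the members. Of 3 further subicular genes, 0 were called by edgeR in any comparison. In caffeine against Tg4-42 vehicle, 2 had an unadjusted p under 0.05, as had 17.0% of all tested genes. Slc17a6, the vesicular glutamate transporter of subicular and thalamic neurons, was at 119, 94.9 and 132 CPM in WT vehicle, at 104, 82.0 and 113 CPM in Tg4-42 vehicle, and at 87.7, 41.7 and 30.1 CPM in Tg4-42 caffeine. Its log2 fold change with caffeine was -0.90 ± 0.35 (edgeR, adjusted p = 0.237). Nts, which encodes neurotensin, differed by -0.85 ± 0.27 (edgeR, adjusted p = 0.141). The third gene, Ntng2, lay at only 0.964 to 2.38 CPM and went the other way, by 0.41 ± 0.38 (edgeR, adjusted p = 0.623). The summed level of the 3 genes was 40.8 to 102 CPM in Tg4-42 caffeine, below 118 to 134 CPM in Tg4-42 vehicle and 122 to 156 CPM in WT vehicle. Slc17a6 made up most of this sum in every mouse.

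Of 6 further upper-layer genes, 0 were called by edgeR in any comparison. In caffeine against Tg4-42 vehicle, the log2 fold change was below 0 for 5 of them, lowest for Lamp5 (-0.85 ± 0.33). For Rasgrf2 it was above 0 (0.28 ± 0.14). Lamp5 was at 143, 178 and 295 CPM in WT vehicle, at 222, 148 and 282 CPM in Tg4-42 vehicle, and at 163, 102 and 95.9 CPM in Tg4-42 caffeine. WT vehicle replicate 3 and Tg4-42 vehicle replicate 3 were the highest for Lamp5, as they were for Rorb, Foxp2 and Cux2. The mean log2 deviation of the 6 genes from their 9-mouse mean was 0.74 in WT vehicle replicate 3 and 0.50 in Tg4-42 vehicle replicate 3, and between -0.46 and 0.27 in the other mice.

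Of 12 further deep-layer genes, 1 was called in caffeine against Tg4-42 vehicle and 0 in the other comparisons. This was Bcl11b, which rose with caffeine (log2 fold change 0.75 ± 0.17, edgeR adjusted p = 0.0469), opposite in sign to the median of the list, -0.26. Bcl11b encodes a transcription factor of layer 5 neurons that dentate granule cells and other hippocampal neurons also express. Ccn2, a gene of layer 6b named after its values were seen, was at 41.7, 30.5 and 69.4 CPM in WT vehicle, at 45.2, 20.9 and 71.2 CPM in Tg4-42 vehicle, and at 21.8, 13.8 and 7.07 CPM in Tg4-42 caffeine (log2 fold change with caffeine -1.68 ± 0.59, edgeR adjusted p = 0.223). As for Rorb and Foxp2, replicate 3 was the highest mouse of each vehicle group and the lowest of the caffeine group. Ccn2 had the lowest log2 fold change of the list in caffeine against Tg4-42 vehicle. In that comparison 9 of the 12 genes were below 0 and 3 above. The 12 genes summed to 504 to 572 CPM in WT vehicle, 453 to 594 CPM in Tg4-42 vehicle and 481 to 540 CPM in Tg4-42 caffeine, so the groups overlapped. Most of this sum came in every mouse from Bcl11b and from Crym and Foxp1, named here for their share of it. Their means over the 9 mice were 71.7, 169 and 99.0 CPM. With caffeine against Tg4-42 vehicle they differed by 0.75 ± 0.17, -0.04 ± 0.25 and 0.12 ± 0.12, so the sum says little about the other genes of the list.

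Markers of the hippocampus proper were set beside the members, and its fields differed in direction. In caffeine against Tg4-42 vehicle, the log2 fold change was above 0 for all 4 CA3 genes, with a median of 0.30. It was above 0 for 3 of 4 CA2 genes, with a median of 0.15. Of either list, edgeR called 0 in this comparison, beside 0.881% of all tested genes. All 6 dentate granule cell genes had a log2 fold change above 0 in caffeine against Tg4-42 vehicle, with a median of 0.96, and 1 of them, Plk5, was called (1.52 ± 0.26, edgeR adjusted p = 0.0385). Their summed level was 304 to 464 CPM in WT vehicle, 199 to 463 CPM in Tg4-42 vehicle and 560 to 773 CPM in Tg4-42 caffeine. Tg4-42 caffeine replicate 3, lowest for 6 members, was the highest mouse for this sum, and Tg4-42 vehicle replicate 3, among the highest for Rorb and Foxp2, was the lowest. Without Tg4-42 caffeine replicate 3, and likewise without Tg4-42 vehicle replicate 3, edgeR called 0 genes in this comparison, Plk5 and Bcl11b included. Both calls were also lost without Tg4-42 caffeine replicate 2 (adjusted p = 0.0523 for each) or Tg4-42 vehicle replicate 1 (0.0876 and 0.0858). Without Tg4-42 caffeine replicate 3, 1641 genes still had an unadjusted p under 0.05. The 5 CA1 genes summed to 438 to 641 CPM in WT vehicle, 430 to 504 CPM in Tg4-42 vehicle and 374 to 406 CPM in Tg4-42 caffeine. They did not move as 1 list in caffeine against Tg4-42 vehicle. The log2 fold change was below 0 for 4 of them, from -0.56 ± 0.15 for Wfs1 to -0.04 ± 0.33 for Fibcd1. Pou3f1, named after its values were seen, was above 0 (0.70 ± 0.30). The CA1 gene Wfs1, which encodes a protein of the endoplasmic reticulum, fell in caffeine against WT vehicle (log2 fold change -0.77 ± 0.15, edgeR adjusted p = 0.0408), the 1 call of that list, and the call was lost without Tg4-42 caffeine replicate 2 or 3 or WT vehicle replicate 2 or 3, with adjusted p-values from 0.0792 to 0.341. The 6 interneuron genes summed to 832 to 919, 828 to 1299 and 612 to 772 CPM in the same order of groups. In caffeine against Tg4-42 vehicle, all 6 had a log2 fold change below 0, with a median of -0.46, as had 51.5% of all tested genes. Of these 6, 5 had an unadjusted p under 0.05, beside 17.0% of all tested genes, and edgeR called 0. Astrocyte and microglial genes were also read despite the sort for neuronal nuclei. The 5 astrocyte genes summed to 79.6 to 111 CPM in WT vehicle, 87.7 to 98.2 CPM in Tg4-42 vehicle and 64.8 to 82.5 CPM in Tg4-42 caffeine. The 4 microglial genes summed to 19.1 to 26.2, 20.8 to 27.8 and 14.4 to 19.7 CPM in the same order of groups. No astrocyte or microglial gene was called by edgeR in any comparison. In caffeine against Tg4-42 vehicle, 3 astrocyte genes and 1 microglial gene had an unadjusted p under 0.05, as had 17.0% of all tested genes. The part of dentate, CA1, CA2, CA3, interneuron, astrocyte or microglial content in the members' values was not tested.

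Genes of neighbouring regions outside the cortex were also read. Of 4 thalamic genes, Tcf7l2 was at 13.3 CPM in WT vehicle replicate 1 and at 0.253 to 1.38 CPM in the other 8 mice, and the summed level was 90.0 CPM in that mouse against 7.95 to 51.5 CPM elsewhere. Prkcd made up most of this sum, with 72.1 CPM in WT vehicle replicate 1 and 6.10 to 50.6 CPM elsewhere. Gbx2 was at or below 0.257 CPM in every library. Of the 6 striatal genes, Drd2 reached at most 1.86 CPM and Adora2a 1.77 CPM, and the summed level was 85.5 to 109 CPM in WT vehicle, 96.6 to 129 CPM in Tg4-42 vehicle and 64.2 to 78 CPM in Tg4-42 caffeine. Drd1, at 27.9 to 60.9 CPM, and Rgs9, at 21.7 to 31.6 CPM, made up most of the striatal sum. The part of thalamic or striatal tissue in these levels was not tested. In WT vehicle replicate 1, Fn1 was the highest of the 9 mice, while the other 7 members lay within the range of the other mice.

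**Figure D5:**
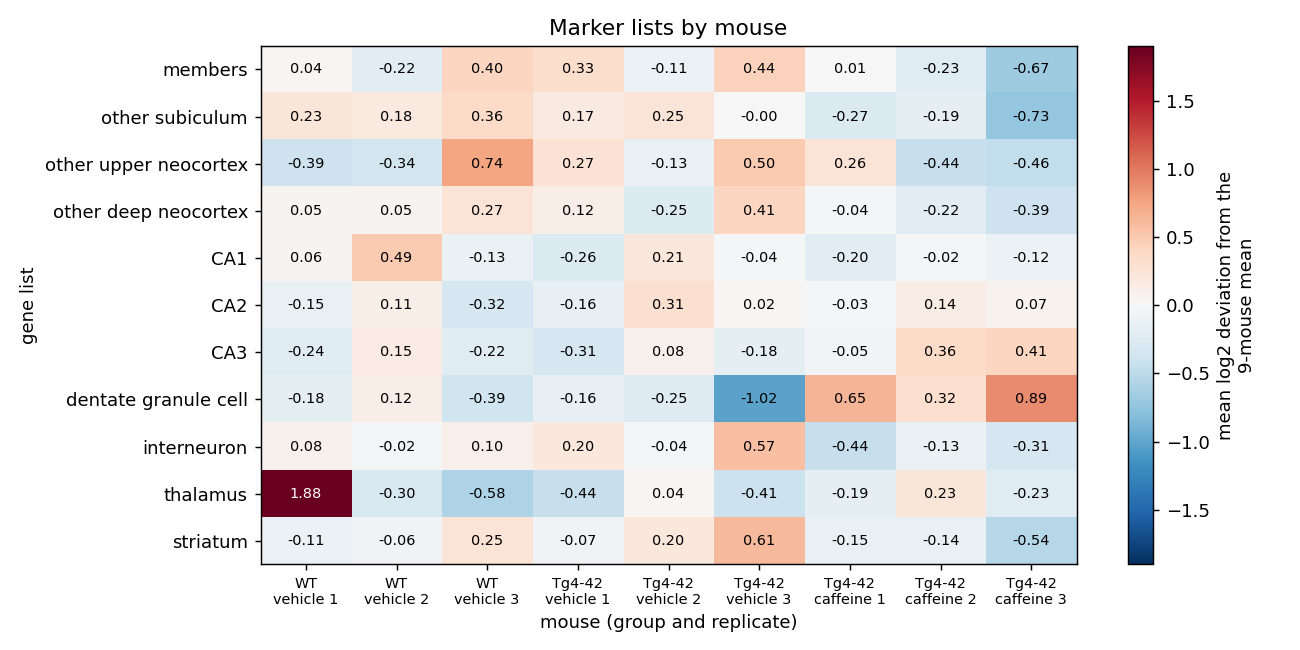
Mean log2 deviation of each marker list from its 9-mouse mean (colour and printed value), for the 8 members in the top line and 10 other lists below, in each of the 9 mice. Tg4-42 caffeine replicate 3 is lowest for the members (-0.67) and the other subicular genes (-0.73) and highest for dentate granule cells (0.89), and the thalamic list stands out in WT vehicle replicate 1 (1.88).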

How the data were processed

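Per the study's methods, the authors isolated NeuN-stained nuclei, prepared libraries with a low-input amplification kit, mapped single-end reads to mm10 by STAR and counted those on exons by featureCounts. They deposited raw counts per gene without normalization. Symbols and positions came from GENCODE M21 for 48349 of 48709 identifiers. Members and marker lists were chosen with earlier results of these data known.

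In R 4.3.3, edgeR 4.0.16 kept 17361 genes by its default filter (minimum count 10, minimum total 15), scaled libraries by TMM and fitted all 9 libraries together with robust quasi-likelihood F tests. P-values were adjusted by Benjamini-Hochberg over all tested genes, with a threshold of 0.05. Standard errors came from the F statistic. Genes were named by a rule: the members, the 3 genes most like each, and from each list the called genes or otherwise up to 4 in list order. Steps were tested on simulated data. Alternatives were DESeq2 1.42.0, RLE scaling, no filter, a minimum mean of 50 counts, fits of the compared groups alone, a replicate block, lane as covariate, limma-voom (limma 3.58.1) and leaving out each mouse. Lane 6 alone, Spearman's rho and group centring were added after seeing the data. Replicate numbers follow library order and lanes were read from library names; nothing in the labels pairs mice, and p-values measure the spread between these libraries. Library pairs of a group had an r of 0.978 to 0.985 across genes and differed beyond sampling noise. Some marker lists are not reported here.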

Additional observations from a re-analysis of the deposited data

How the results depend on the processing

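In Tg4-42 vehicle against WT vehicle, 0 members were called under every alternative. In caffeine against Tg4-42 vehicle, DESeq2 called 1 member (Fezf2) and the fit without a filter on low counts called 3 (Foxp2, Rorb and Fezf2), and in caffeine against WT the fit without a filter called 2 (Rorb and Nr4a2), beside many more genes overall. Without the filter, the SE in caffeine against Tg4-42 vehicle was 0.18 for Rorb and 0.23 for Foxp2, against 0.78 and 0.56 in the main fit. Over all 17361 tested genes, the 17, 153 and 72 calls of the 3 comparisons (Tg4-42 vehicle against WT, caffeine against Tg4-42 vehicle, caffeine against WT) became 26, 765 and 568 with DESeq2. Without the filter they became 74, 987 and 860 of 30820 genes. With lane as a covariate, caffeine against Tg4-42 vehicle gave 9 and caffeine against WT 42 calls, with limma-voom 587 and 125, and with the mice of lane 6 only 0 (956 at an unadjusted p under 0.05) and 17. Leaving out each mouse in turn gave 14 to 18, 0 to 341 and 16 to 287 calls. No paired analysis was part of the design, and a block for replicate number gave counts of 16, 187 and 82, with 0 members called in each comparison. Deviations of same-numbered mice correlated between -0.17 and 0.19, with 5 of 9 pairs over 0.1. The causes of these differences were not tested.

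Some log2 fold changes changed sign, among them those of Foxp2 and Rorb in caffeine against WT (-0.75 and -0.96 over all mice). In lane 6 only, these were Fn1 in Tg4-42 vehicle against WT (-0.036), Tshz2 (0.059) and Nr4a2 (0.13) in caffeine against Tg4-42 vehicle, and Foxp2 (0.37), Rorb (0.066) and Cux2 (0.17) in caffeine against WT. Tshz2 in caffeine against WT was -0.0021 with the replicate block and -0.040 with limma-voom. Leaving out single mice moved Fn1 from -0.092 to 0.36, Rorb from -0.26 to 0.80 and Tle4 from -0.14 to 0.017 in Tg4-42 vehicle against WT, Tle4 from -0.059 to 0.10 and Tshz2 from -0.21 to 0.031 in caffeine against Tg4-42 vehicle, and Cux2 from -0.45 to 0.17, Foxp2 from -1.12 to 0.059 and Tshz2 from -0.12 to 0.12 in caffeine against WT. Of the pairs of members, 1 passed with Pearson's r and with Spearman's rho and 0 after centring on each group. After centring, a single pair could not pass even at the smallest p the permutations within groups allow.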
